A study of Homo sapiens with 12 samples.

Results

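The Hippo pathway is a relay of kinases that keeps the transcriptional coactivators YAP and TAZ out of the nucleus, and 10 of its genes were followed here in 786-O cells, a clear cell renal cell carcinoma line. They are the upstream kinases STK3 and STK4 (MST2 and MST1), their scaffold SAV1, the kinase co-activators MOB1A and MOB1B, the effector kinases LATS1 and LATS2, the membrane scaffold NF2, and the angiomotins AMOTL1 and AMOTL2. They were chosen by name, and their symbols were matched to the gene IDs of a deposited table of raw counts. All 10 were found among its 62702 genes, and all 10 were among the 12301 genes with enough counts to be tested.

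Polyadenylated RNA was counted by BRB-seq, which tags and sequences 3′ ends, in 12 libraries that form 4 groups of 3. All groups received doxycycline for 72 hours. The parental group is labelled as the control, with no shRNA named. The shHIF2A line carried inducible shRNA against HIF2A, which EPAS1 encodes, the shJUNs line against JUN, JUNB and JUND, and the shYAPTAZ line against YAP (gene YAP1) and TAZ (gene WWTR1). The derived lines had also been selected with puromycin, blasticidin or hygromycin. A control shRNA line was not analysed here, so effects of the shRNA targets and other differences between the lines cannot be told apart. The labels call the replicates technical, so p-values measure only the spread between these libraries.

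Library totals ran from 2272459 to 4469956 counts, at which 3 counts in a library equal 0.671 to 1.32 CPM (a count scaled to the library size, with TMM factors). Mitochondrially encoded transcripts took 6.33% to 9.37% of a library. In each knockdown the mean level of every gene targeted by its shRNA was below the parental mean, and all of these differences passed the test. Targets of another line's shRNA moved as well: EPAS1 fell 5.47-fold in shJUNs and 1.81-fold in shYAPTAZ, JUND fell 1.61-fold in shHIF2A and 2.09-fold in shYAPTAZ, and JUN was about as low in shHIF2A (80.2 CPM) as in shJUNs (85.6 CPM; parental 152.9), while WWTR1 rose in shHIF2A and shJUNs. Parental replicate 1 was farther from the other parental libraries than these were from each other (chi-squared per degree of freedom 9.64 and 13.12 against 5.4), and shYAPTAZ replicates 1 and 3 were the pair of replicates that differed most (20.24). The 8 markers of renal carcinoma cells fixed for the check were detected in every library, with a summed level of 11060 to 18010 CPM. Most of this sum was VIM, at 9063 to 16930 CPM. Among the others, CDH6 ran from 68.04 to 583.4 CPM, KRT8 from 155 to 659.1, KRT18 from 92.84 to 440.7 and CD70 from 477.1 to 771.3. PAX8 ran from 79.58 to 112.6 CPM, PAX2 from 2.55 to 18.5 and CA9 from 0.894 to 4.78. CDH6 rose 4.05-fold in shHIF2A, 3.07-fold in shJUNs and 5.25-fold in shYAPTAZ, and KRT8 1.95-fold, 3.37-fold and 1.87-fold. KRT18 rose 2.55-fold in shHIF2A and 3.49-fold in shJUNs. VIM fell 1.58-fold in shHIF2A and CD70 1.29-fold in shYAPTAZ. All of these passed the test, and no other change of these markers against parental did. Of 15 markers of blood, endothelial, fibroblast and neural cells, CD3E, PECAM1 and CDH5 were at 0 in all libraries. COL1A1, COL3A1 and MAP2, 3 of the 15, were detected in every library. COL1A1 and MAP2 rose in shHIF2A (3.79-fold and 4.91-fold) and in shYAPTAZ (3.34-fold and 3.19-fold). LUM fell 14.98-fold in shYAPTAZ, and each of these changes passed the test. The list summed to 16.96 to 22.69 CPM in parental cells, to 51.5 to 67.54 in the shHIF2A line, to 22.41 to 28.04 in shJUNs and to 25.88 to 36.63 in shYAPTAZ; the part of this in the results below was not tested.

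As background, STK3 or STK4 bound to SAV1 phosphorylates LATS1 or LATS2 and the MOB1 proteins, LATS phosphorylates YAP and TAZ, and NF2 (merlin) brings LATS to the membrane, where angiomotins also bind YAP. Phosphorylated YAP and TAZ are held in the cytoplasm or degraded, and unphosphorylated YAP and TAZ bind TEAD factors on DNA and switch on target genes. LATS2 and AMOTL2 are themselves known target genes of YAP and TAZ, a negative feedback on the coactivators, and NF2 and SAV1 are mutated in some renal carcinomas.

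AMOTL2 and LATS2 were lower than in parental cells in all 3 knockdowns, and their starts are shown because they moved together. RefSeq windows of the 250 bases before each annotated start (GRCh38.p14) were matched by symbol for 9 of the 10 genes, 13 windows in all, with no entry for STK3. The windows were searched on both strands for CATTCC (a TEAD letter pattern), TGANTCA (AP-1) and ACGTG (HIF), words that can share end letters with each other; CATTCC was found in 11.89% of 35114 windows of this length in the table, TGANTCA in 6.57% and ACGTG in 18.51%. The LATS2 window lies on the minus strand at chr13:21061587-21061836 and holds ACGTG as its reverse complement, set in capitals, ending at the annotated start. One of the AMOTL2 windows holds CATTCC, set in capitals, 69 bases before its start, and 30 bases around it are shown, minus strand, chr3:134374499-134374528. These bases lie within the annotated span of AMOTL2, outside the part of the window upstream of annotated exons (chr3:134374595-134374697). The other AMOTL2 window, at the outer end of the gene (chr3:134375418-134375667), holds none of the words.
LATS2: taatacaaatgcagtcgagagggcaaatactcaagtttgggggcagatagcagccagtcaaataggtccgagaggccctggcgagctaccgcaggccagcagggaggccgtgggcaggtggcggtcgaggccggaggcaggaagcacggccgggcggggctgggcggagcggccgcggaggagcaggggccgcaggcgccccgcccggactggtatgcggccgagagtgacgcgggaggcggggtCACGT
AMOTL2: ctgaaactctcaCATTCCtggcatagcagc

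CATTCC was found in a window of 1 of the 9 genes (AMOTL2), TGANTCA in 2 (LATS1 and MOB1B) and ACGTG in 4 (LATS1, LATS2, STK4 and AMOTL1). LATS1, MOB1A, NF2 and AMOTL2 had 2 windows each, and the shares above are per window, not per gene. No gene held the same word in 2 windows, so the counts over the 13 windows are also 1, 2 and 4. A match is a run of letters, not a measured binding site.

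Against parental cells, 4 of the 10 genes passed the test in shHIF2A, 4 in shJUNs and 3 in shYAPTAZ (edgeR's quasi-likelihood test over all 12 libraries, Benjamini-Hochberg adjusted p under 0.05, adjusted over all genes tested). Among all 12301 genes the shares that passed were 18.6% in shHIF2A, 19.3% in shJUNs and 25.3% in shYAPTAZ. In shHIF2A, AMOTL2, MOB1A and LATS2 fell and NF2 rose. In shJUNs, AMOTL2, LATS2 and LATS1 fell and NF2 rose. In shYAPTAZ, AMOTL2 and LATS2 fell and MOB1B rose. The median log2 change of the 10 genes was -0.46 for shHIF2A, -0.32 for shJUNs and -0.16 for shYAPTAZ, beside medians of 0.01, 0.00 and 0.02 over all genes tested. The libraries of a knockdown did not overlap the parental ones for 6 of the 10 genes in shHIF2A, 4 in shJUNs and 3 in shYAPTAZ. Over all genes tested they did not overlap for 36.1%, 39.5% and 36.2%. These 3 comparisons share the parental libraries. In extracts of whole cultures, fewer cells that express a gene and less RNA of it per cell cannot be told apart.

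**Figure D1:**
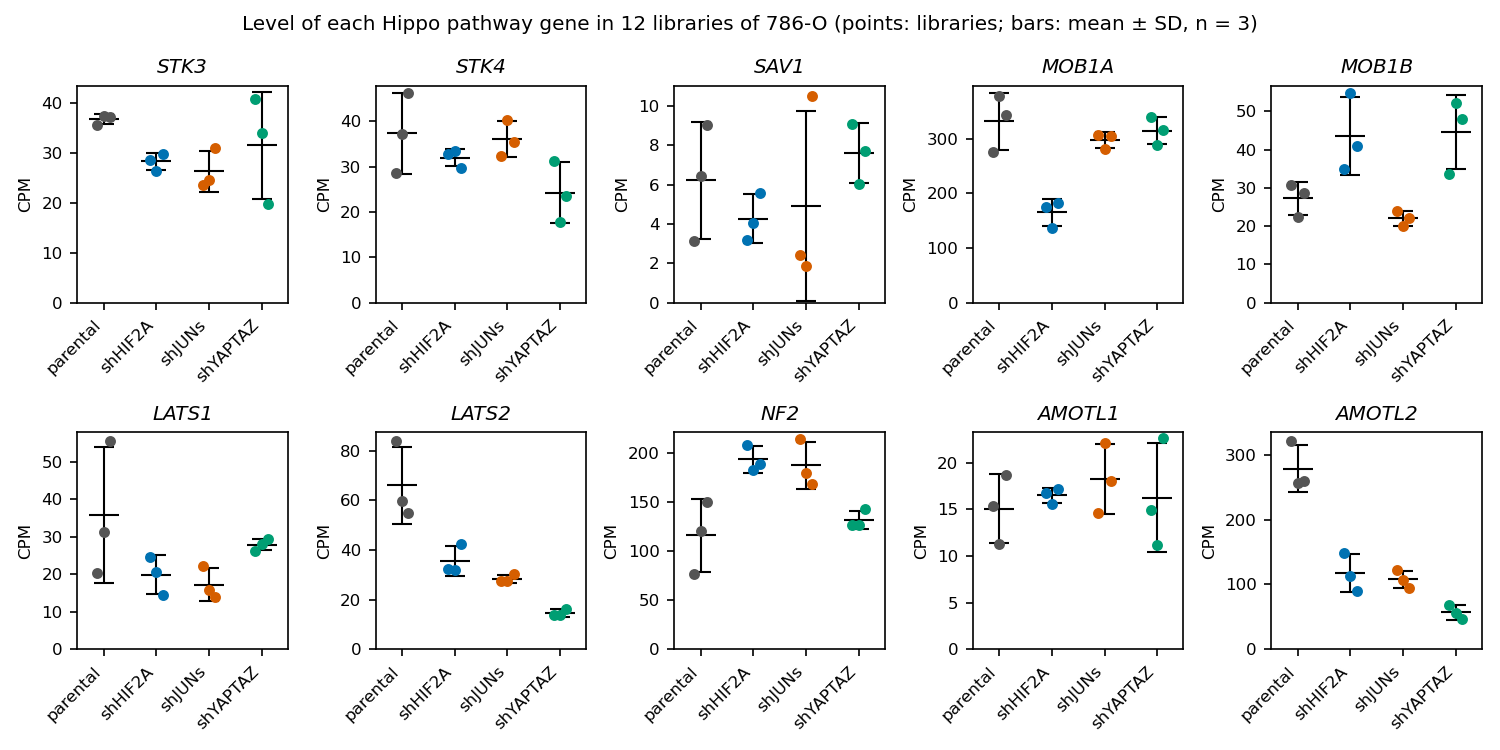
Level of each of the 10 genes in CPM (linear axis from 0, its own scale in each panel) in the 4 groups; points are libraries, and bars are the mean ± SD of 3. AMOTL2 and LATS2 are highest in all 3 parental libraries and lowest in all 3 shYAPTAZ libraries, and MOB1A is lowest in the 3 shHIF2A libraries.

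Between knockdowns, 2 of the 10 genes differed between shJUNs and shHIF2A (7.53% of all genes did), 4 between shYAPTAZ and shHIF2A (18.4%) and 3 between shYAPTAZ and shJUNs (16.1%). These comparisons do not contrast the parental group, but they share knockdown libraries with each other and with the comparisons against parental. Their spread was estimated from all 12 libraries. In the same order, libraries did not overlap for 3, 6 and 6 of the 10 genes, beside 31.2%, 32.2% and 33.3% of all genes. AMOTL2 and LATS2 were lower in shYAPTAZ than in either other knockdown, MOB1A was lower in shHIF2A than in either other knockdown, and MOB1B was lower in shJUNs than in either other knockdown. NF2 was lower in shYAPTAZ than in shHIF2A. A single test for any difference among the 4 groups passed for 6 of the 10 genes, AMOTL2, LATS2, MOB1A, MOB1B, NF2 and LATS1, beside 38.7% of all genes, and did not pass for STK3, STK4, SAV1 and AMOTL1.

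**Figure D2:**
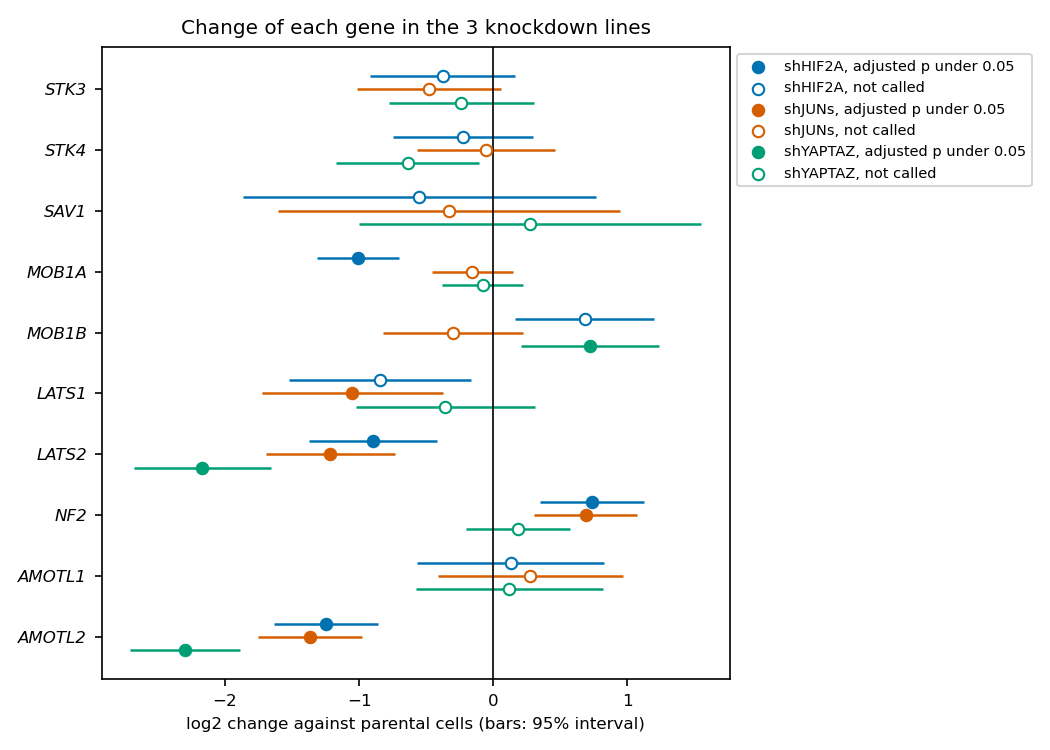
Log2 change of each gene in each knockdown against parental cells (x axis), with the 95% interval of the edgeR fit as bars; filled points passed the adjusted p of 0.05. The AMOTL2 and LATS2 points of shYAPTAZ, at -2.30 and -2.17, lie farthest from 0.

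AMOTL2 (ENSG00000114019, chr3:134355347-134375479, minus strand in hg38, as are all gene positions below) encodes an angiomotin, a scaffold at cell junctions that binds YAP and activates LATS. It was counted at 320.7, 255.9 and 259.2 CPM in parental replicates 1 to 3, at 148.1, 113.5 and 90.03 in shHIF2A, at 121.6, 107.6 and 94.98 in shJUNs and at 69.0, 56.04 and 46.27 in shYAPTAZ. Every parental library was above every knockdown library, and every shYAPTAZ library was below every other library. The level was 2.37-fold lower than parental in shHIF2A (log2 change -1.25, SE 0.19, adjusted p = 7.46e-05), 2.58-fold lower in shJUNs (-1.37, SE 0.19, 1.98e-05) and 4.91-fold lower in shYAPTAZ (-2.30, SE 0.20, 1.67e-08). The shYAPTAZ level was also below that of shHIF2A, by 2.07-fold (adjusted p = 0.000534), and that of shJUNs, by 1.91-fold (0.00185). The difference between shJUNs and shHIF2A did not pass (log2 -0.12, 95% interval -0.51 to 0.27, adjusted p = 0.775), and their libraries overlapped. Each of the 3 falls against parental passed under all 21 other settings of the fit, which included leaving out each library.

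AMOTL1 (ENSG00000166025, chr11:94706431-94876748, plus strand), the paralog of AMOTL2 at junctions, showed no called difference in any comparison. Its 12 libraries ran from 11.14 to 22.65 CPM, and the means were 15.1 in parental, 16.5 in shHIF2A, 18.3 in shJUNs and 16.3 in shYAPTAZ. The 95% interval of its change in shYAPTAZ was -0.58 to 0.82 in log2, beside -2.71 to -1.89 for AMOTL2. AMOTL2 supplied 94.8% of the pair's counts in parental cells (mean; range 93.3% to 95.8%), 87.2% in shHIF2A, 85.4% in shJUNs and 77.6% in shYAPTAZ. No parental library overlapped a knockdown library in this share. An exact two-sided permutation test gave p = 0.1 for each knockdown, the smallest that 3 against 3 libraries allow, and 0.24 after adjustment over the 12 comparisons of 4 pairs.

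LATS2 (ENSG00000150457, chr13:20973036-21061586, minus strand), an effector kinase that phosphorylates YAP and TAZ, was counted at 83.76, 59.61 and 54.83 CPM in the parental libraries, at 32.18, 31.81 and 42.39 in shHIF2A, at 27.51, 27.51 and 30.17 in shJUNs and at 13.62, 13.69 and 16.39 in shYAPTAZ. The groups did not overlap, and shYAPTAZ was again the lowest and parental the highest. LATS2 was 1.86-fold lower than parental in shHIF2A (log2 change -0.90, SE 0.23, adjusted p = 0.00868), 2.32-fold lower in shJUNs (-1.21, SE 0.23, 0.000723) and 4.49-fold lower in shYAPTAZ (-2.17, SE 0.25, 9.86e-07). The shYAPTAZ level was 2.41-fold below that of shHIF2A (adjusted p = 0.000905) and 1.94-fold below that of shJUNs (0.0101), and the step from shHIF2A to shJUNs did not pass (log2 -0.32, adjusted p = 0.47). Without parental replicate 1, the library with the highest LATS2, the fall in shHIF2A no longer passed (adjusted p = 0.0671).

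LATS1 (ENSG00000131023, chr6:149658153-149718105, minus strand), the paralog of LATS2 with the same substrates, spread widely in parental cells, at 20.24, 31.21 and 55.68 CPM. It was at 24.64, 20.59 and 14.36 CPM in shHIF2A, at 22.19, 15.76 and 13.86 in shJUNs, and at 26.33, 28.02 and 29.4 in the shYAPTAZ line. Parental replicate 1 lay among the knockdown libraries, so the groups overlapped in each comparison with parental. LATS1 fell in shJUNs (log2 change -1.05, SE 0.33, adjusted p = 0.0256), a call that was lost without parental replicate 3 (0.253), shJUNs replicate 2 (0.0911) or shJUNs replicate 3 (0.118). The change in shHIF2A was -0.85 (adjusted p = 0.0739; 0.0209 without parental replicate 1) and that in shYAPTAZ was -0.36 (95% interval -1.02 to 0.31, adjusted p = 0.455). The test among the 4 groups passed for LATS1 (adjusted p = 0.0409), and with parental replicate 3 left out its adjusted p was 0.204.

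LATS2 took a smaller share of the LATS pair in every shYAPTAZ library than in any library of the other groups. LATS2 made up 80.5%, 65.6% and 49.6% of the counts of the LATS pair in the parental libraries and 34.1%, 32.8% and 35.8% in the shYAPTAZ libraries, with means of 65.3% and 34.2%. The shHIF2A and shJUNs means, 64.0% and 62.5%, lay within the parental range. The exact permutation p for shYAPTAZ was 0.1, the smallest possible (0.24 adjusted). Counts are not divided by transcript length, so a share is read only between groups. The summed level of the pair was 101.8 ± 10.0 CPM in parental cells (SD, n = 3), 55.3 ± 2.53 in shHIF2A, 45.7 ± 3.52 in shJUNs and 42.5 ± 2.99 in shYAPTAZ, and no knockdown library of any line reached the lowest parental sum of 90.8 CPM.

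**Figure D3:**
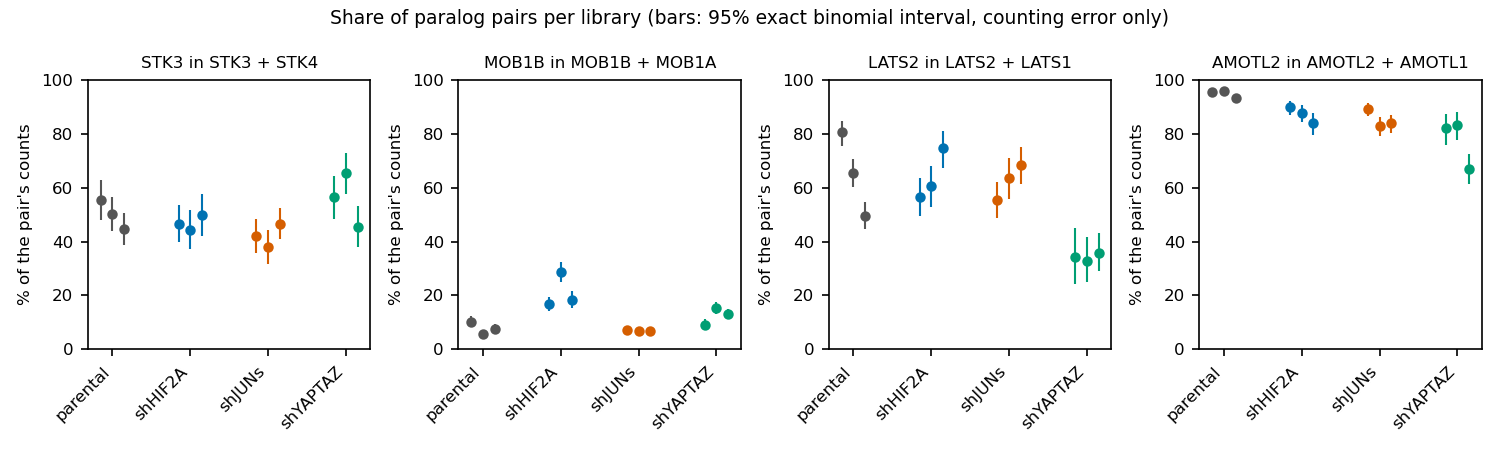
Share of one paralog in the summed counts of its pair (y axis, percent) in each library, by group; bars are 95% exact binomial (Clopper-Pearson) intervals that cover counting error only. LATS2 falls to 32.8% to 35.8% of its pair in the shYAPTAZ libraries, and MOB1B reaches 16.7% to 28.6% in the shHIF2A libraries.

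MOB1A (ENSG00000114978, chr2:74152528-74178898, minus strand), an adaptor that binds and activates LATS, was counted at 275.7, 378.2 and 342.9 CPM in parental cells and at 175.4, 137.2 and 183.2 in shHIF2A. It was at 307.8, 281.2 and 304.6 CPM in shJUNs and at 339.6, 289.4 and 316.4 in shYAPTAZ. The shHIF2A libraries were below all 9 others, and the other 3 groups overlapped. The fall in shHIF2A was 2.01-fold (log2 change -1.01, SE 0.15, adjusted p = 5.71e-05), and it passed under all 21 other settings. The changes in shJUNs (-0.16, 95% interval -0.46 to 0.14) and in shYAPTAZ (-0.08, -0.38 to 0.23) did not pass. The difference between knockdowns passed too: MOB1A was 1.80-fold higher in shJUNs than in shHIF2A (adjusted p = 0.000738) and 1.91-fold higher in shYAPTAZ than in shHIF2A (0.000109).

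MOB1B (ENSG00000173542, chr4:70902326-71022449, plus strand), the paralog with the same role, was at 30.71, 22.49 and 28.55 CPM in parental cells, 35.07, 54.89 and 40.99 in shHIF2A, at 23.96, 20.03 and 22.12 in shJUNs, and at 33.59, 52.22 and 47.95 in the shYAPTAZ line. The shHIF2A and shYAPTAZ libraries were all above the parental libraries, and the shJUNs libraries were among or below them. The rise in shYAPTAZ was 1.65-fold (log2 change 0.72, SE 0.25, adjusted p = 0.037), while the difference of 0.68 in shHIF2A did not pass (SE 0.25, adjusted p = 0.059). MOB1B was also 2.03-fold higher in shYAPTAZ than in shJUNs (adjusted p = 0.00653) and 1.98-fold lower in shJUNs than in shHIF2A (0.0164). The call in shYAPTAZ was lost without parental replicate 2 (0.147), parental replicate 3 (0.0669), shYAPTAZ replicate 2 (0.15) or shYAPTAZ replicate 3 (0.0975), and that between shJUNs and shHIF2A without shHIF2A replicate 2 (0.125) or any shJUNs library (0.0508 to 0.0851). The span of MOB1B overlaps that of DCK on the same strand, and the sources used here do not say to which of them shared reads were assigned; DCK itself did not pass in any knockdown against parental.

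MOB1B made up 10.0%, 5.61% and 7.69% of the counts of the MOB1 pair in the parental libraries and 16.7%, 28.6% and 18.3% in the shHIF2A libraries. The mean share was 7.77% in parental, 21.2% in shHIF2A, 6.88% in shJUNs and 12.5% in shYAPTAZ. For shHIF2A the groups did not overlap (exact permutation p = 0.1, the smallest possible; 0.24 adjusted), and for shJUNs (0.7) and shYAPTAZ (0.2) they did. The summed level of the pair was 359.5 ± 48.2 CPM in parental cells (SD, n = 3), 208.9 ± 16.1 in shHIF2A, 319.9 ± 16.4 in shJUNs and 359.7 ± 16.3 in shYAPTAZ.

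NF2 (ENSG00000186575, chr22:29603556-29698598, plus strand), which encodes the tumour suppressor merlin, was at 76.78, 120.6 and 149.8 CPM in parental cells. It was at 208.1, 182.1 and 188.8 CPM in shHIF2A, at 213.5, 178.7 and 168.3 in shJUNs, and at 126.2, 126.1 and 142.2 in the shYAPTAZ line. All shHIF2A and shJUNs libraries were above all parental and shYAPTAZ libraries, and the latter groups overlapped. NF2 rose 1.66-fold in shHIF2A (log2 change 0.73, SE 0.19, adjusted p = 0.00814) and 1.61-fold in shJUNs (0.69, SE 0.19, 0.0118). The call in shJUNs was lost without parental replicate 1, the lowest parental library (0.0633), or shJUNs replicate 1 (0.0745). The change in shYAPTAZ was 0.18 (95% interval -0.21 to 0.57, adjusted p = 0.523). Between knockdowns NF2 was 1.47-fold lower in shYAPTAZ than in shHIF2A (adjusted p = 0.0418), which passed in 10 of 21 other settings, and the difference from shJUNs did not pass (log2 -0.51, adjusted p = 0.0677), though it passed in 6 of 21 other settings, among them without parental replicate 1 (0.0182) or 3 (0.0438). The call against shHIF2A was lost without any library of shHIF2A (0.0739 to 0.125) or shJUNs (0.0559 to 0.0599), without shYAPTAZ replicate 1 (0.0809) or 2 (0.134), and without parental replicate 2 (0.0576).

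The upstream kinases STK3 (ENSG00000104375, chromosome 8) and STK4 (ENSG00000101109, chr20:44966494-45080021, plus strand), which start the relay, showed no called change. STK3 was at 35.6, 37.39 and 37.31 CPM in parental cells, 28.7, 26.51 and 29.78 in shHIF2A, at 23.52, 24.57 and 31.06 in shJUNs, and at 40.86, 34.07 and 19.76 in the shYAPTAZ line. The shHIF2A and shJUNs libraries all lay below the parental ones, but neither difference passed (log2 -0.38, 95% interval -0.92 to 0.16, and -0.48, -1.01 to 0.06; adjusted p = 0.338 and 0.213), and the shYAPTAZ libraries spread across the others. STK4 was at 28.62, 37.11 and 46.35 CPM in parental cells, 32.76, 33.37 and 29.78 in shHIF2A, at 32.4, 40.32 and 35.53 in shJUNs, and at 31.32, 17.83 and 23.62 in the shYAPTAZ line. The change of STK4 in shYAPTAZ was -0.64 (95% interval -1.17 to -0.10) with an adjusted p of 0.074, and of 0.0398 without parental replicate 1 or 0.0274 without shYAPTAZ replicate 1. STK3 made up 50.1% of the counts of this pair in parental cells and 42.2% to 55.9% on average in the knockdowns, with overlapping libraries in each comparison.

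SAV1 (ENSG00000151748, chr14:50632058-50668306, minus strand), the scaffold that joins STK3 or STK4 to LATS, had the fewest counts, 7 to 47 per library. It was at 3.14, 6.47 and 9.04 CPM in parental cells, 3.19, 4.05 and 5.61 in shHIF2A, at 2.44, 1.87 and 10.5 in shJUNs, and at 9.08, 6.05 and 7.71 in the shYAPTAZ line. The spread within groups was as wide as that between them, and no comparison passed. The 95% interval of the change in shHIF2A ran from -1.86 to 0.76 in log2. The span of SAV1 holds ENSG00000269906 on the same strand, with 20 counts in parental, 33 in shHIF2A, 48 in shJUNs and 30 in shYAPTAZ. SAV1 itself had 64, 40, 65 and 71 counts, and the sources used here do not say to which gene shared reads were assigned.

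Several of these genes lie on chromosomes whose other genes had a median change away from 0 in a line. A shift of a whole chromosome was not tested. The median log2 change against parental of the 217 other tested genes of chromosome 13, which carries LATS2, was 0.04 in shHIF2A, -0.14 in shJUNs and -0.52 in shYAPTAZ. LATS2 lay below that median by 0.94 in shHIF2A, 1.08 in shJUNs and 1.65 in shYAPTAZ. Of the 10 tested genes nearest to LATS2, 5 on each side, 4 fell and 0 rose in shYAPTAZ, with a median of -0.60, beside 35.5% called over the other genes of chromosome 13. Among them were CRYL1 (-1.40, adjusted p = 0.00768) and SAP18 (-0.69, 0.00225), named after their values were seen. Between knockdowns, LATS2 in shYAPTAZ was 0.74 below the chromosome's median change from shHIF2A and 0.48 below that from shJUNs, where its own log2 changes were -1.27 and -0.95.

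Chromosome 14, which carries SAV1, had a median over 412 other genes of -0.01 in shHIF2A, 0.39 in shJUNs and 0.89 in shYAPTAZ, so SAV1 was 0.54, 0.72 and 0.61 below the rest of its chromosome. Of the 10 tested genes nearest to SAV1, 4 rose and 1 fell in shYAPTAZ, beside 47.1% called over the chromosome. Chromosome 22, which carries NF2, had medians of 0.08, 0.31 and 0.28 over 289 genes, which leaves NF2 at 0.65, 0.38 and -0.09 relative to its chromosome in shHIF2A, shJUNs and shYAPTAZ. Chromosome 6, with LATS1, had a median of 0.30 in shYAPTAZ, so LATS1 was 0.66 below its chromosome there. For AMOTL2 on chromosome 3 the medians were 0.03, -0.08 and 0.16, and the gene lay 1.28, 1.29 and 2.46 below them. Of its 10 nearest tested genes 4 rose and 0 fell in shYAPTAZ, beside 24.1% called over the chromosome. Copy number was not measured, and its part in these values was not tested.

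**Figure D4:**
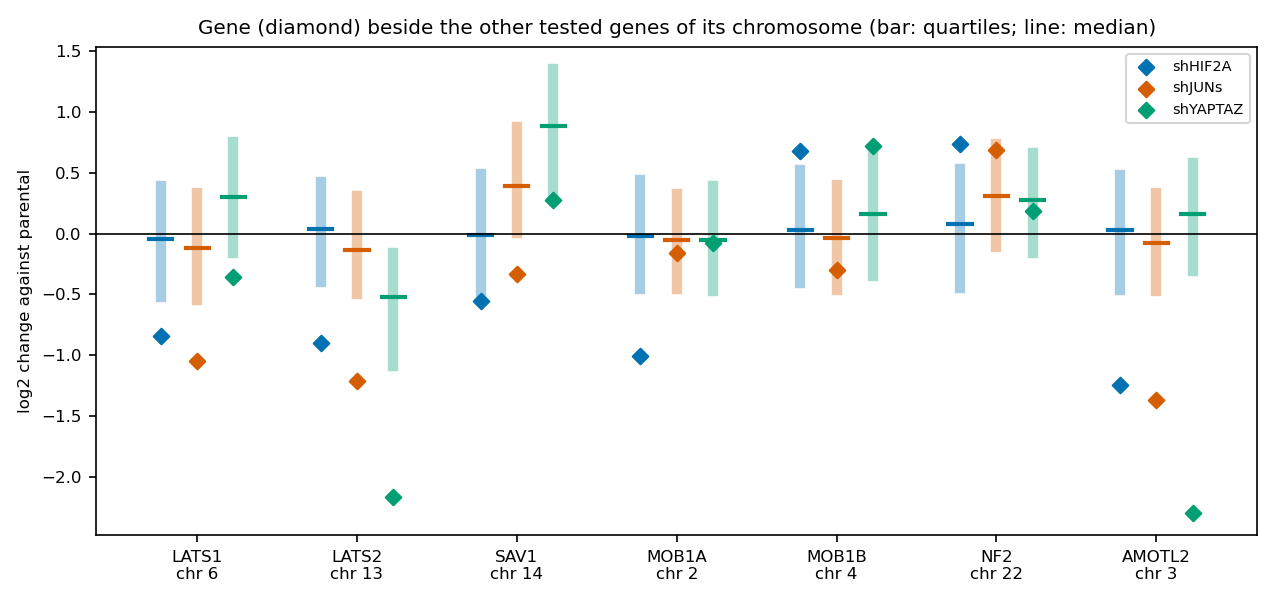
Log2 change against parental cells (y axis) of 7 of the genes (diamonds) beside the other tested genes of the same chromosome (line, median; bar, middle quartiles) in each knockdown. LATS2 lies below the bar of chromosome 13 in all 3 lines, and in shYAPTAZ SAV1 is near 0.27 while the median of chromosome 14 is 0.89.

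The rest of the pathway was described with a list of 71 other Hippo genes, of which 65 were tested. In shHIF2A 6 rose and 4 fell (15.4%), in shJUNs 5 rose and 6 fell (16.9%), and in shYAPTAZ 8 rose and 12 fell (30.8%), beside 18.6%, 19.3% and 25.3% of all genes. Of 30 upstream regulators 2 rose and 2 fell in shHIF2A, 2 rose and 3 fell in shJUNs, and 3 rose and 5 fell in shYAPTAZ. Of 20 inhibitors of the Hippo kinases, most of them parts of the STRIPAK phosphatase complex, 1 rose and 2 fell in shHIF2A, 1 rose and 3 fell in shJUNs, and 4 rose and 2 fell in shYAPTAZ. Of 9 ubiquitin and PARsylation enzymes that act on LATS, MOB1 or the angiomotins, 1 rose in each line and 2 fell in shYAPTAZ. Of the 6 effectors tested, which include YAP1, WWTR1 and the TEAD factors, 2 rose in shHIF2A, 1 rose in shJUNs and 3 fell in shYAPTAZ.

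Named here are the genes among the largest 4 called changes per direction in each line, over all lists together, with their changes in the other lines where these passed too. Of the upstream regulators, TAOK2, a kinase that activates STK3 and STK4, rose in all 3 lines, by 1.01 in log2 in shHIF2A (adjusted p = 0.00634), 1.04 in shJUNs (0.00457) and 0.99 in shYAPTAZ (0.00524). TAOK1, a related kinase, fell by 0.90 in shHIF2A (0.00185), where TNIK, a kinase of the MAP4K family that can act on LATS, rose by 0.85 (0.0102). Of the WWC scaffolds, which bring LATS to its activators, WWC3 fell by 0.83 in shHIF2A (0.0237), WWC2 by 1.62 in shJUNs (1.78e-05) and by 0.59 in shYAPTAZ (0.0457), and WWC1 (KIBRA) by 1.56 in shYAPTAZ (6.62e-06). RASSF2, which binds STK3 and STK4, rose by 2.04 in shJUNs (0.00195) and 2.15 in shYAPTAZ (0.000921). DLG5, a polarity scaffold, fell by 1.02 in shJUNs (0.00667) and by 0.85 in shYAPTAZ (0.0177), and STK38L, a kinase related to LATS, rose by 1.37 in shYAPTAZ (0.0305).

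Among the inhibitors, STK24, a STRIPAK kinase, fell in all 3 lines, by 1.09 in log2 in shHIF2A (adjusted p = 0.000453), 1.22 in shJUNs (0.000118) and 1.22 in shYAPTAZ (8.62e-05). AJUBA, which binds and restrains LATS, fell by 0.95 in shHIF2A (6.11e-05), where the STRIPAK part CTTNBP2NL rose by 1.19 (0.00335). In shJUNs the striatin STRN fell by 1.18 (0.00802) and the phosphatase subunit PPP2CB rose by 0.58 (0.0146), and in shYAPTAZ PPP2CB rose by 0.77 (0.0012) and the striatin STRN3 by 1.12 (0.0155). Of the ubiquitin ligases, WWP1 rose in all 3 lines, by 0.81 in shHIF2A (0.00703), 0.80 in shJUNs (0.00736) and 0.68 in shYAPTAZ (0.0168), and NEDD4 fell by 1.21 in shYAPTAZ (0.00198). Of the effectors, VGLL4, which competes with YAP for TEAD, rose by 1.02 in shHIF2A (0.00808), and YAP1, an shRNA target, fell by 2.26 in shYAPTAZ (1.2e-06).

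Of 20 other known target genes of YAP and TAZ, a list without LATS2 and AMOTL2, 19 were tested. In shHIF2A 4 of them rose and 4 fell (42.1% called), in shJUNs 1 rose and 4 fell (26.3%), and in shYAPTAZ 4 rose and 9 fell (68.4%), beside 18.6%, 19.3% and 25.3% of all genes. Their median log2 change was -0.35, -0.27 and -0.58 in the 3 lines.

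For each gene that differed among the 4 groups, the genes whose profile lay nearest were sought among 8848 candidates, by the root-mean-square difference of centred log2 CPM over the 12 libraries. For AMOTL2, whose own SD on that scale was 0.88, they were NCAM1 (0.21), NEO1 (0.21) and NEAT1 (0.27). For LATS2 (SD 0.81) they were CARS1 (0.20), MTHFD2 (0.27) and POLR1D (0.29), the last also on chromosome 13. For MOB1A (SD 0.45) they were AJUBA (0.14), BRK1 (0.17) and CTBS (0.18), and so AJUBA, the LATS-binding protein named above, had the nearest profile to MOB1A. For MOB1B (SD 0.50) they were MICA (0.21), KDELR2 (0.22) and FSCN1 (0.22). For NF2 (SD 0.42) they were ORAI2 (0.14), LAMTOR1 (0.16) and DNAJC10 (0.16), and for LATS1 (SD 0.55) they were SUV39H1 (0.25), BAZ1B (0.30) and WDR70 (0.30). These are descriptions over libraries that share group, line and depth.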

How the data were processed

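RNA of 12 libraries was analysed. The authors deposited raw read counts per gene, trimmed with Trim Galore and aligned with STAR to hg38, per the submitters' processing notes. The sources used here do not give the counting program, its use of strand, the annotation release, tool versions or the treatment of molecular identifiers. A gene broken over 3 of the 62705 lines was left out. Gene IDs were matched to symbols by a table of names.

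Counts were fitted with edgeR 4.0.16 in R 4.3.3: filterByExpr by group, TMM scaling and a robust quasi-likelihood model of group means over all 12 libraries, which gave a common dispersion of 0.0628 (a coefficient of variation of 25.1%). Each p was Benjamini-Hochberg adjusted over 12301 genes, and called under 0.05. The fit was run on simulated counts with known changes in the shYAPTAZ libraries and the same dispersion for every gene. That setting is simpler than these data, so it checks the code only. SEs are the log2 change over the root of the F statistic, and intervals are 95%. Depth was 2272459 to 4469956 counts per library. Intervals of shares cover counting error only.

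Alternatives were RLE factors, TMM without chromosomes 13 and 14, no filter or a mean of 10 CPM, DESeq2 1.42.0, limma-voom (limma 3.58.1), fits of 6 libraries, a replicate block, thinned counts, each library left out, and the change less the chromosome's median. Named were all 10 genes and the shRNA targets; up to 4 called genes per direction of the other Hippo genes, by size of change, with a mean of at least 10 CPM; and the 3 nearest profiles of each gene called among the groups. The genes, lists and rules were chosen with earlier results of these data known. The paralog shares, promoter words and a check of shared words at 3′ ends were added after results were seen. In that check, 50-base words in the last 1000 bases of the GENCODE release 29 transcripts were shared with other genes for 3.84% in SAV1, 2.06% in NF2, 4.07% in AMOTL2 (with RPL39P5, at 0 to 3 counts per group) and 0% in the other 7.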

Additional observations from a re-analysis of the deposited data

How the results depend on the processing

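Over 70 results on single genes, 1453 alternative values with a test kept direction and side of the threshold in 1372, lost a call in 35, gained 1 in 13 and changed sign in 33, 0 of these for a called gene. A further 60 values, the changes less the chromosome's median, have no test; 50 moved by less than the spread between replicates and 10 by more. With a library left out, the number of the 10 genes called was 4 to 5 in shHIF2A against parental, 3 to 4 in shJUNs, 2 to 4 in shYAPTAZ, 1 to 2 between shJUNs and shHIF2A, 3 to 4 between shYAPTAZ and shHIF2A and between shYAPTAZ and shJUNs, and 5 to 6 among the 4 groups. The share of all genes called moved too, over 12% to 20.9%, 11.8% to 21.2%, 19.2% to 25.1%, 3.67% to 9.42%, 12.7% to 19.4% and 10.1% to 17.2% in the 6 comparisons in that order. The count of 2 between shJUNs and shHIF2A became 1 without shHIF2A replicate 2 or any shJUNs library, each of which ended the call of MOB1B.

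Replicate numbers are not known to pair the libraries, since the labels call the replicates technical. Same-numbered libraries deviated together with a correlation over 0.1 in 5 of 18 pairs (-0.01 to 0.22), and 8 of 12 libraries were closest to their own number. Whether same-numbered libraries shared a handling step was not tested. With the replicate number as a block, 4, 4 and 3 of the 10 genes passed against parental, 2 between shJUNs and shHIF2A, 4 between shYAPTAZ and shHIF2A, 4 between shYAPTAZ and shJUNs (3 without the block; NF2 gained, adjusted p = 0.0331) and 6 among the groups. Of all genes the block called 23.4%, 23.5% and 28.5% against parental and 11%, 22.5% and 20.2% between knockdowns, more than the fit without it in each comparison.

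MOB1B in shYAPTAZ also lost its call with no filter (0.0614) and with 6 libraries (0.0741), and in shHIF2A it gained one with DESeq2 (0.0462) and thinned counts (0.0449). LATS1 among the groups passed in 12 of 20 settings. SAV1 was not tested at the filter of 10 CPM.

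No result that changed sign was called, and the cause was not tested. With a library left out the log2 change ranged as follows. Against parental in shHIF2A it was -0.054 to 0.32 for AMOTL1. In shJUNs it was -0.21 to 0.13 for STK4 and -1.52 to 0.046 for SAV1. In shYAPTAZ it was -0.64 to 0.11 for LATS1, -0.46 to 0.011 for STK3, -0.035 to 0.64 for SAV1, -0.20 to 0.024 for MOB1A, -0.041 to 0.41 for NF2 and -0.23 to 0.33 for AMOTL1. For shJUNs against shHIF2A it was -0.96 to 0.61 for SAV1, -0.14 to 0.031 for NF2, -0.002 to 0.29 for AMOTL1 and -0.28 to 0.085 for AMOTL2. For shYAPTAZ against shHIF2A it was -0.084 to 0.40 for STK3, -0.10 to 0.25 for MOB1B and -0.35 to 0.21 for AMOTL1, and for shYAPTAZ against shJUNs it was -0.50 to 0.058 for AMOTL1. Thinned counts turned MOB1B (shYAPTAZ against shHIF2A) to -0.049, and NF2 and AMOTL1 (shJUNs against shHIF2A) to 0.056 and -0.054. limma-voom turned SAV1 (shJUNs against shHIF2A) to -0.12. AMOTL1 (shYAPTAZ against shHIF2A) turned to 0.003 with RLE factors, 0.01 with TMM without chromosomes 13 and 14 and 0.005 with DESeq2.

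SAV1 has the fewest counts, 7 to 47 per library, and the 3 technical replicates per line limit every interval.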
